A study of Mus musculus with 24 samples.

Results

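Whole lungs of mice whose alveolar type 2 (AT2) cells had lost a let-7 microRNA cluster were compared with control lungs after 6 months of booster tamoxifen. The comparison takes all 8 libraries of that time point, 4 control and 4 knockout, of 24 libraries in the series, each from a separate mouse, and every gene in the table of these libraries. Control mice were Sftpc-CreER/+; R26-tdT/+ and knockout mice were let7afd-/-;Sftpc-CreER/+; R26-tdT/+, so that Cre and the tdTomato reporter were present in both genotypes, and all 8 mice had tamoxifen. Sftpc-CreER places the tamoxifen-activated recombinase under the surfactant protein C promoter, and so directs the deletion to AT2 cells, their descendants and any other cell that uses this promoter. The remaining cells of the lung keep the cluster. No source used here states the age of the mice or the tamoxifen schedule. Poly(A) RNA was sequenced from libraries that do not keep the strand, and values are TPM, a level corrected for transcript length and scaled to the same sum in every library.

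AT2 cells are the surfactant-producing cells of the alveolus and its stem cells. They give rise to the flat AT1 cells through which gas is exchanged, and in injured lungs some of them stop at an intermediate state marked by keratin 8. The let-7 microRNAs are small RNAs that rise as cells mature and hold down growth-promoting messages by pairing with their 3′ untranslated regions (3′ UTRs) through a short seed at bases 2 to 8. Alveolar macrophages live on the surfactant layer, which they take up and break down in lysosomes, and lung injury adds macrophages that carry lipid-handling and matrix-degrading genes.

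The deleted cluster, on chr13:48536012-48538272 (minus strand, GRCm38.p6), encodes 3 microRNAs, shown here as RefSeq gives them with the seed in capitals because the seed sets which messages they pair with.
let-7a-5p: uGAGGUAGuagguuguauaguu
let-7f-5p: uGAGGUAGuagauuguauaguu
let-7d-5p: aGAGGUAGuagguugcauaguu
let-7g-5p, from a gene on another chromosome that was not deleted: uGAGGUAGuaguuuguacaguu
The 3 deleted microRNAs and the remaining family members thus share 1 seed. The precursor of each let-7 gene was listed at 0 TPM in every one of the 8 libraries, so these poly(A) libraries give no check of the deletion itself.

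The libraries were alike in breadth, with 13956 to 14175 genes at 1 TPM or more. Correlations of log2(TPM + 1) were 0.9858 to 0.9917 between libraries of 1 genotype and 0.9528 to 0.9659 between genotypes, and the first principal component, with 65.9% of the variance, placed the 4 knockout libraries on one side and the 4 control libraries on the other. Haemoglobin genes took 0.773 to 2.03% of all TPM. Xist, made by the inactive X chromosome, was present in all 8 libraries and Y-linked Ddx3y was listed at 0 in all 8. Scgb1a1, the main secreted protein of airway club cells, was the highest gene in every library, at 167263 to 210303 TPM in controls and 93506 to 108457 TPM in knockouts. TPM share a fixed sum, so this difference alone moves other genes: with Scgb1a1 taken out and the libraries rescaled, the median log2 difference of all genes moved from -0.005 to -0.14.

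Gene expression differed between the genotypes across much of the transcriptome. With limma on log2(TPM + 1), 4226 of 14177 genes tested (29.8%) passed an adjusted p of 0.05, 2260 of them higher in knockouts (15.9% of genes tested) and 1966 lower (13.9%). Groups did not overlap at 4333 genes (30.6%). The rises reached further than the falls: 481 genes rose by at least 1 on the log2 scale and 128 by at least 2 on that scale, against 137 and 7 genes that fell by as much. The share of calls that were higher was 53.5%, but 42.6% after quantile normalization (2085 higher and 2808 lower) and 26.1% with Scgb1a1 removed (1564 higher and 4419 lower), so the direction of small differences depends on the scaling. List counts below are to be read beside the 15.9% higher and 13.9% lower of all genes tested. With Scgb1a1 removed 14360 genes were tested, and list counts under that setting stand beside the 1564 higher and 4419 lower of these. Of the 481 larger rises 478 passed in the same direction with Scgb1a1 removed, as did all 137 larger falls. In whole lung, more or fewer cells of a type and more or less RNA per cell cannot be told apart.

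**Figure D1:**
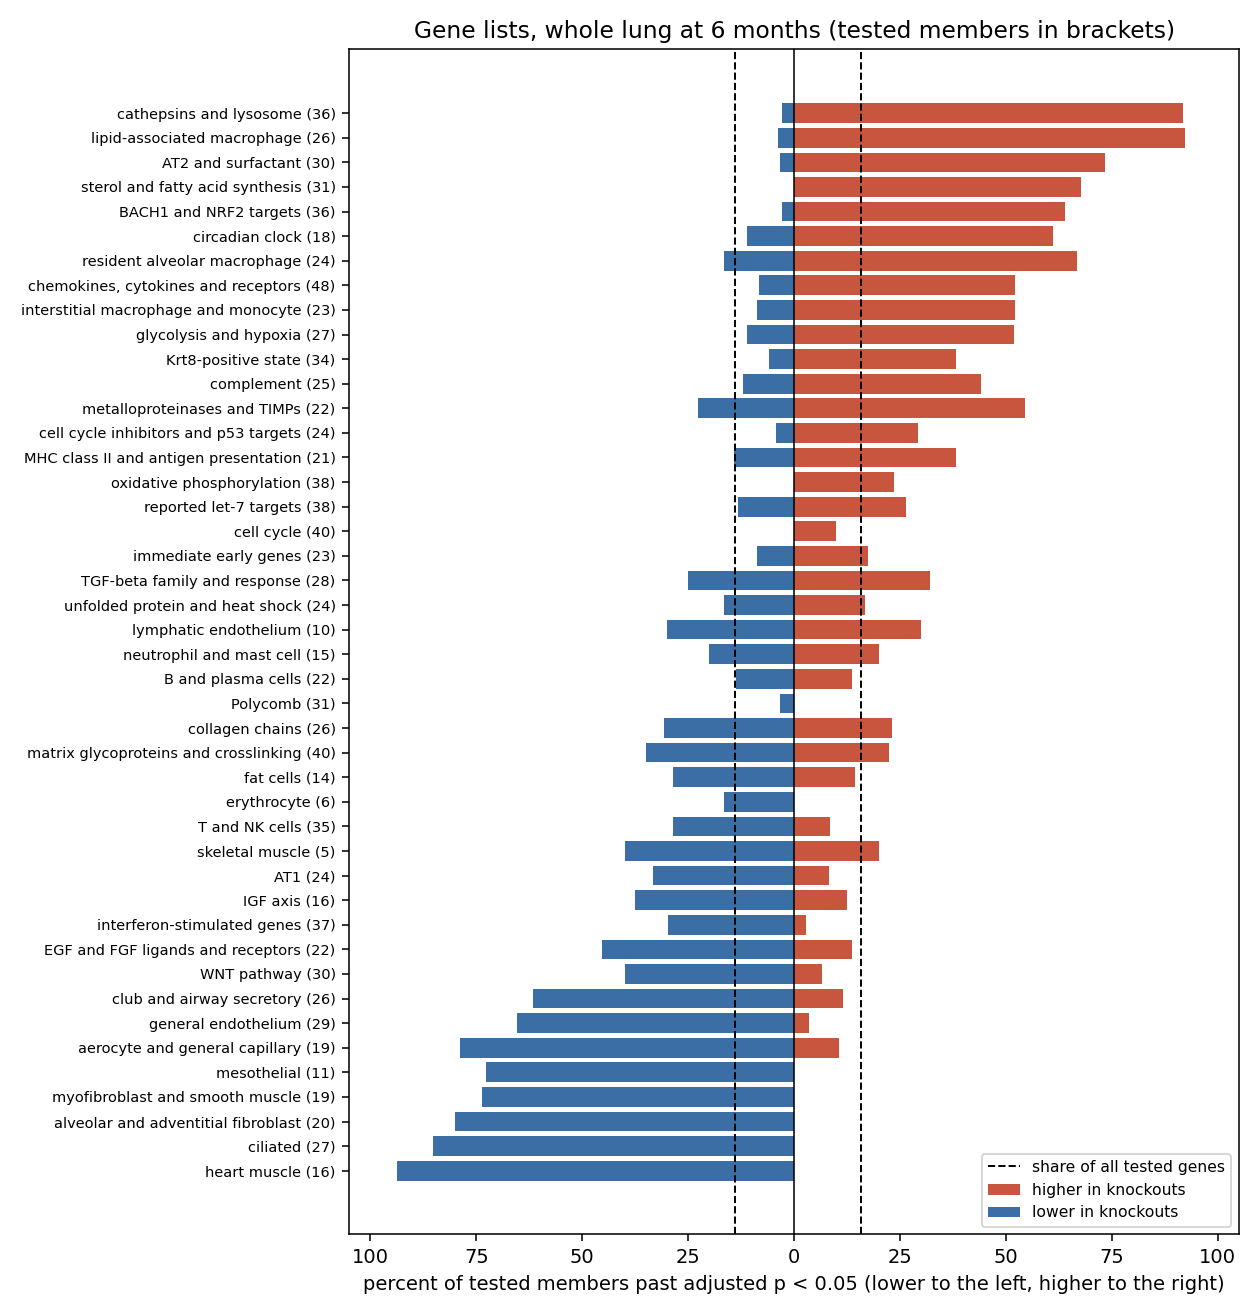
Percent of the tested members of each gene list that passed an adjusted p of 0.05, higher in knockouts to the right and lower to the left, with the number of tested members in brackets and dashed lines at the shares of all tested genes (15.9% higher, 13.9% lower). The lysosome and lipid-associated macrophage lists stand furthest to the right, and the heart muscle, ciliated cell, fibroblast and capillary lists furthest to the left.

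The largest rise was in Mmp12 (chr9:7344381-7369499, GENCODE M21 on GRCm38), the macrophage elastase that cleaves elastin. Its level was 2.89, 2.41, 5.49 and 4.05 TPM in control and 779, 485, 399 and 559 TPM in knockout libraries, so that the lowest knockout library was far above every control library (log2 difference 6.89, SE 0.22, adjusted p = 3.27e-09). Gpnmb (chr6:49036546-49070929), a membrane glycoprotein of lipid-loaded macrophages, stood at 10.7, 8.94, 11.3 and 13.5 TPM in control and 1736, 1162, 789.6 and 1172 TPM in knockout libraries (log2 difference 6.61, SE 0.20, adjusted p = 2.21e-09). Again the groups did not overlap, and knockout 1 was above the other knockout libraries. Npy, which encodes neuropeptide Y, was listed at 0 in all 4 controls and at 111, 51.9, 49.3 and 66.5 TPM in knockouts.

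The other rises among the 15 largest included many genes of myeloid cells. Trem2 (chr17:48346401-48354147), a lipid-sensing receptor of macrophages, was at 7.1 ± 0.912 TPM across controls and 207 ± 45.5 TPM across knockouts (mean ± SD, n = 4 per group, here and below). Cathepsin K (Ctsk), a collagen-degrading lysosomal protease, was at 22.3 ± 2.73 TPM across controls and 591 ± 108 TPM across knockouts. Atp6v0d2, a subunit of the lysosomal proton pump found in macrophages and osteoclasts, was at 16.4 ± 2.86 TPM across controls and 336 ± 48.8 TPM across knockouts. The log2 differences of these genes were 4.66, 4.65 and 4.28, with adjusted p of 2.5e-09, 1.65e-09 and 2.34e-09. Chemokine Ccl6 rose from 122 ± 13 to 2033 ± 363 TPM, and Wfdc17, a small secreted protein of myeloid cells, from 34.6 ± 4.08 to 614 ± 87.6 TPM. The chemokine receptor gene Cxcr1 rose from 1.14 ± 0.627 to 62.9 ± 16.6 TPM, the myeloid lectin Clec4d from 5.67 ± 1.37 to 98.3 ± 11.6 TPM and the acute phase gene Saa3 from 10.6 ± 4.94 to 174 ± 74.4 TPM. The zinc transporter Slc39a2 and the acyltransferase Awat1, which makes wax esters, rose from 1.28 ± 0.56 and 0.0347 ± 0.0408 TPM to 45.9 ± 13.1 and 20.2 ± 4.77 TPM. Ear6, of the eosinophil-associated ribonucleases, and the pseudogene Atp6v0c-ps2 have near-identical copies between which reads may be shared. The latter was at 0, 0, 86.4 and 55.9 TPM in control and 269.7, 303, 346 and 309 TPM in knockout libraries. With 2 controls at 0, the SE of its log2 difference was 1.32.

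**Figure D2:**
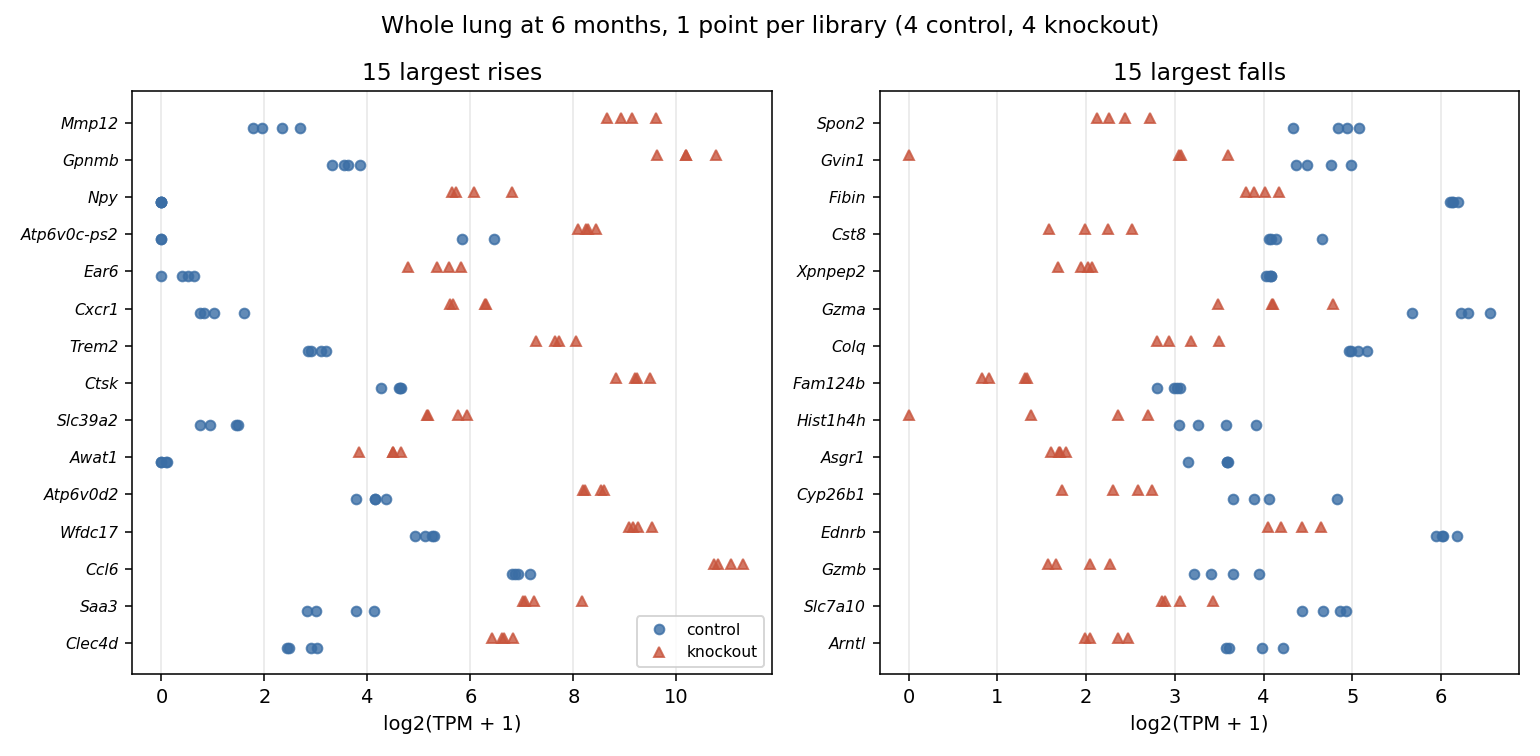
Level of the 15 genes with the largest rise (left) and the 15 with the largest fall (right) on log2(TPM + 1), with 1 circle for each control and 1 triangle for each knockout library. By the rule that chose them the groups do not overlap at any of them; Npy sits at 0 in every control, and Gvin1 and Hist1h4h at 0 in knockout 3.

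Among genes of lipid-associated macrophages, 24 of 26 tested members rose and 1 fell, with a median log2 difference of 2.15, against 15.9% of all genes higher. The summed level of the list was 5744 to 6047 TPM in controls and 21525 to 28092 TPM in knockouts. Cathepsin D (Ctsd, chr7:142375911-142388038), the main aspartic protease of lysosomes, stood at 624, 579, 618 and 629 TPM in control and 6382, 6198, 5242 and 5266 TPM in knockout libraries. The groups lay far apart with a small spread within each (log2 difference 3.23, SE 0.07, adjusted p = 6.41e-10). Cathepsin S (Ctss), which trims antigens for presentation, rose from 275 ± 26.1 to 1859 ± 147 TPM, and Lgals3, which encodes galectin-3, from 163 ± 10.9 to 1302 ± 136 TPM. Tyrobp, the signalling adaptor of Trem2 and related receptors, rose from 237 ± 10.5 to 1018 ± 44.1 TPM (adjusted p = 7.64e-10). Osteopontin (Spp1), a secreted matrix protein of activated macrophages and epithelium, was at 209.8, 271, 231 and 187 TPM in control and 2231, 1516, 1225 and 1379.8 TPM in knockout libraries. Its groups did not overlap and knockout 1 was highest (log2 difference 2.79, SE 0.17, adjusted p = 4.23e-07).

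Lysosomal genes rose together. Of 36 tested genes of cathepsins, lysosomal membrane proteins, hydrolases and the proton pump, 33 rose and 1 fell (median log2 difference 1.10), and the list's sum went from 5469 to 6040 TPM in controls to 19939 to 24110 TPM in knockouts. Prosaposin (Psap), from which the activators of sphingolipid breakdown are cut, rose from 892 ± 58.6 to 3574 ± 169 TPM (log2 difference 2.00, SE 0.06, adjusted p = 1.81e-09). This list shares members with the macrophage lists (Gpnmb, Ctsd, Ctss, Ctsk and Atp6v0d2 among them), so the counts are not independent.

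Lysosomal promoters often hold the letters TCACGTG, the core of the element through which TFEB-type factors act on lysosomal genes. In RefSeq promoters (250 bases before to 50 after the gene start, GRCm38.p6, both strands), 6 of 26 lysosome-list genes with a promoter held it (23.1%), against 6.7% of 11097 tested genes with a promoter. Genes that rose held it in 9.2% of cases, genes that fell in 3.7% and genes that did not pass in 6.6%. The motif, in capitals, and its surroundings are shown for members of the list, with a single copy per gene, because they are the sequence those shares count. All of the genes shown rose. Another member with the motif, which also rose, and further copies in Ctsd, Ctsa and Mcoln1 are left out.
Ctsd, chr7:142387908-142387937, minus strand: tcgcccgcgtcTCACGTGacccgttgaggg
Ctsa, chr2:164833749-164833778, plus strand: tgagcaaactgTCACGTGatgcagatgctc
Atp6v0d1, chr8:105566050-105566079, minus strand: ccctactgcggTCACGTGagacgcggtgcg
Atp6v1a, chr16:44139373-44139402, minus strand: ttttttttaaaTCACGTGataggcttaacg
Mcoln1, chr8:3500436-3500465, plus strand: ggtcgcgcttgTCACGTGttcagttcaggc
Ctsa encodes the lysosomal protective protein, Atp6v0d1 and Atp6v1a proton pump subunits and Mcoln1 a lysosomal calcium channel, and their log2 differences were 1.58, 0.81, 0.88 and 0.48. These genes are named for holding the motif, and a match of letters says nothing of binding.

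Genes of resident alveolar macrophages did not move as 1 block: 16 of 24 rose, 4 fell and 4 did not pass (median 1.76). Chil3, a chitinase-like secreted protein, was at 365, 278, 408 and 269 TPM in control and 3018, 6459.7, 6091 and 3894 TPM in knockout libraries, each knockout library far above the controls (log2 difference 3.83, SE 0.23, adjusted p = 4.01e-07). The scavenger receptor Marco rose from 5.68 to 8.38 TPM in controls to 39.2 to 84.1 TPM in knockouts, and the GM-CSF receptor chain Csf2ra from 21.3 ± 2.43 to 114 ± 14.9 TPM. The lipid regulator Pparg rose from 11.2 ± 1.97 to 30.5 ± 5.03 TPM. By contrast, Siglecf, the sialic acid lectin that marks resident alveolar macrophages, was at 5.88 ± 2.18 TPM across controls and 7.07 ± 1.42 TPM across knockouts, which was not past the threshold (adjusted p = 0.376, and log2 difference 0.46, adjusted p = 0.0473 without control 3). Fabp1, a fatty acid binding protein, fell from 16 ± 2.34 to 7.11 ± 1.93 TPM. Of interstitial macrophage and monocyte genes, 12 of 23 rose and 2 fell (5 fell with Scgb1a1 removed). The complement chain C1qb rose from 95.5 ± 23.6 to 289 ± 15 TPM. The membrane protein Ms4a7 rose from 8.7 ± 1.92 to 74.9 ± 15.6 TPM and Adgre1, which encodes the F4/80 antigen, from 16.6 ± 0.722 to 65.2 ± 6.74 TPM. The monocyte gene Ccr2 was at 25.9 ± 2.33 TPM across controls and 22.8 ± 3.07 TPM across knockouts (adjusted p = 0.227). It passed as lower with Scgb1a1 removed (adjusted p = 0.0219) and after quantile normalization (adjusted p = 0.0478). Ly6c2, of the same cells, was at 65.1 ± 6.93 TPM across controls and 74.9 ± 18.7 TPM across knockouts (adjusted p = 0.41).

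**Figure D3:**
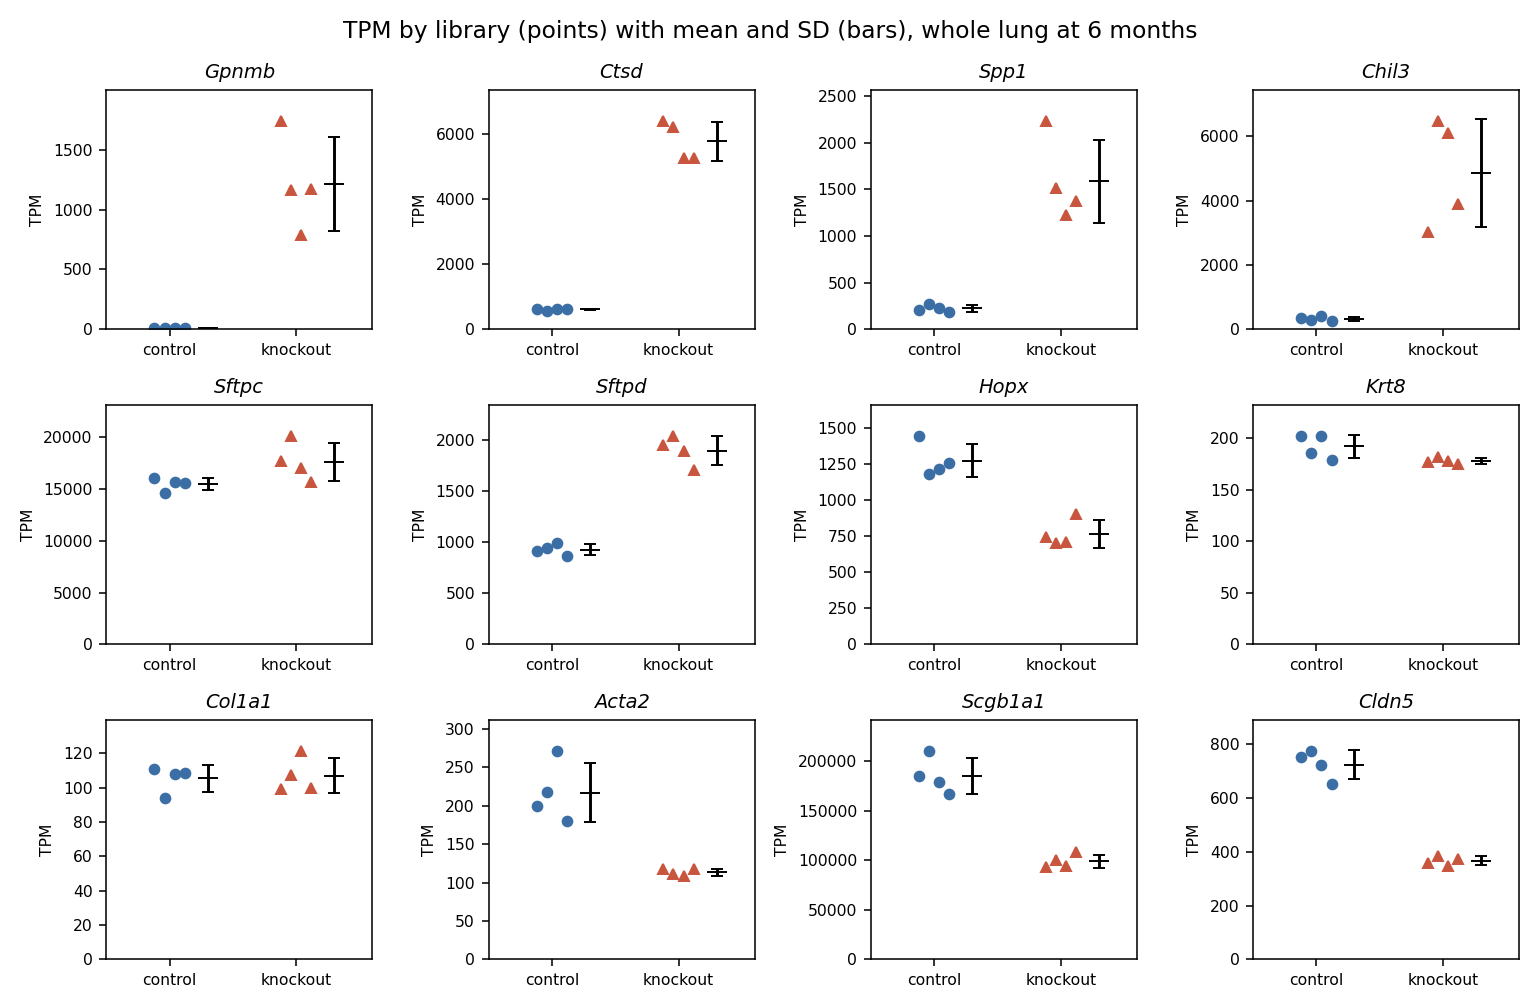
TPM of 12 genes in each control (circles) and knockout (triangles) library on axes that start at 0, with the mean and SD of each group (n = 4) beside the points. Gpnmb, Ctsd, Spp1, Chil3 and Sftpd lie higher in all knockout libraries and Hopx, Acta2, Scgb1a1 and Cldn5 lower, while Sftpc, Krt8 and Col1a1 overlap between genotypes.

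Surfactant and other AT2 genes were higher in knockout lungs: 22 of 30 rose and 1 fell, with a median of 0.59. Several of the leading members are also made by macrophages, such as Lyz2, which encodes lysozyme (7422 ± 303 to 16449 ± 1210.1 TPM, adjusted p = 0.209 after quantile normalization), and Fabp5 (134 ± 17.3 to 1119 ± 136 TPM), so their rise cannot be given to 1 cell type. Surfactant protein D (Sftpd), a collectin of airspace defence, was at 912, 943, 998 and 868 TPM in control and 1952, 2041, 1897 and 1709 TPM in knockout libraries (log2 difference 1.03, SE 0.06, adjusted p = 5.79e-07). Sftpa1, Lamp3 and Slc34a2, of surfactant and lamellar body biology and phosphate uptake, had log2 differences of 0.59, 0.75 and 0.59. The hydrophobic surfactant proteins differed less. Sftpc was at 16029, 14631, 15660.4 and 15583 TPM in control and 17726, 20086, 17013 and 15682 TPM in knockout libraries. Genotypes overlapped (log2 difference 0.18, SE 0.08, adjusted p = 0.105). Among the alternative settings the rise passed only without knockout 4 (log2 difference 0.24, adjusted p = 0.0331). Sftpb was at 3462 ± 196 TPM across controls and 3779 ± 264 TPM across knockouts (adjusted p = 0.171). Chil1, a chitinase-like protein, and Lcn2, an iron-binding defence protein, rose from 783 ± 20.3 and 233 ± 45.3 to 2905 ± 293 and 2493 ± 315 TPM.

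AT1 genes leaned the other way, with 8 of 24 lower and 2 higher, although 14 did not pass. Hopx, a homeodomain regulator marking AT1 cells, was at 1440.0, 1180.0, 1214 and 1256 TPM in control and 742, 699.9, 709 and 905 TPM in knockout libraries, every knockout library below every control (log2 difference -0.74, SE 0.09, adjusted p = 8.28e-05). Pmp22, Cav1 and Emp2, membrane proteins of AT1 and other thin cells, fell by 0.61, 0.55 and 0.52 on the log2 scale. In contrast, the AT1 surface protein Pdpn rose from 130.0 ± 11 to 177 ± 14.5 TPM. Ager, the receptor most used to identify AT1 cells, was at 2979.7 ± 241 TPM across controls and 2694 ± 57.8 TPM across knockouts (log2 difference -0.14, SE 0.06, adjusted p = 0.102). It passed as lower without control 3 (log2 difference -0.18, adjusted p = 0.0341), after quantile normalization (log2 difference -0.21, adjusted p = 0.0347) and with Scgb1a1 removed (log2 difference -0.29, adjusted p = 0.00442). Cav1, Emp2 and Pdpn are also made by endothelium. With Scgb1a1 removed, 17 AT1 genes were lower and 1 higher, and after quantile normalization 15 were lower and 1 higher.

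More genes of the keratin 8 state rose than fell, while 19 of 34 did not pass. Krt8 itself was at 202, 185, 202 and 179 TPM in control and 177, 182, 178 and 175 TPM in knockout libraries. The spread was narrow in knockouts and the groups overlapped (log2 difference -0.11, SE 0.05, adjusted p = 0.15). Krt8 passed as lower with Scgb1a1 removed (log2 difference -0.25, adjusted p = 0.00297) and after quantile normalization (log2 difference -0.22, adjusted p = 0.0086). Of 34 tested genes of the state, 13 rose and 2 fell (median 0.15). The falls numbered 4 without control 2, 6 after quantile normalization and 8 with Scgb1a1 removed, beside 12 rises under both of these scalings. Gdf15, a stress-induced hormone of the TGF-beta family and the largest rise in the list, was at 1.85, 1.78, 1.14 and 1.19 TPM in control and 26.7, 29.4, 27 and 30.2 TPM in knockout libraries (log2 difference 3.57, SE 0.12, adjusted p = 4.42e-09). The other leading members, Lgals3, Ctsl (121 ± 1.55 to 375 ± 66.8 TPM), Plaur (54.9 ± 5.09 to 108 ± 9.45 TPM), Anxa1 (360.2 ± 13.7 to 741 ± 141 TPM) and the cystine transporter Slc7a11 (0.555 ± 0.223 to 9.64 ± 1.16 TPM), are also used by macrophages. Basal cell keratins were near absent: Krt5 reached at most 0.249 TPM in any control and was listed at 0 in all knockouts, and Krt17 was 0 ± 0 TPM across controls and 0.0434 ± 0.0867 TPM across knockouts (SD, n = 4).

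Few proliferation genes passed the test, though most leaned slightly upward. Log2 differences were positive at 32 of 40 tested cell cycle genes (median 0.14, against -0.005 for all genes). With Scgb1a1 removed the median of all genes was -0.14, so a lean of this size depends on the scaling. Of 40 tested cell cycle genes 4 rose and none fell by the limma test (5 and none at an unadjusted p under 0.05), against 15.9% of all genes higher. Without control 4 the count was 8 (20.0%). With Scgb1a1 removed 3 rose and none fell, beside 1564 and 4419 of all 14360 genes tested under that setting. The 4 were Pcna (118 ± 6.94 to 149 ± 4.06 TPM), Tk1 (4.08 ± 0.65 to 6.88 ± 1 TPM), Bub1b (2.73 ± 0.597 to 5.31 ± 1.35 TPM) and E2f1 (6.93 ± 0.552 to 9.68 ± 1.87 TPM). E2f1 overlapped between groups and lost its call without control 2, 3 or 4 or knockout 1 or 3 (adjusted p 0.0616 to 0.0898). It also lost the call with Scgb1a1 removed (adjusted p = 0.0861) and with no filter on low values (adjusted p = 0.0568). Of 24 inhibitors and p53 targets, 7 rose and 1 fell. With Scgb1a1 removed 6 rose and 5 fell, beside 1564 and 4419 of all 14360 genes tested under that setting. The imprinted inhibitor Cdkn1c was at 39.7, 39.3, 42.5 and 39.2 TPM in control and 132, 92.6, 69 and 143 TPM in knockout libraries (log2 difference 1.36, SE 0.18, adjusted p = 0.000218). Its spread was wide among knockouts. Cdkn2a, which encodes p16 and p19Arf, rose from 1.83 ± 0.15 to 4.01 ± 0.389 TPM. The apoptosis effector Bax rose from 71.6 ± 6.23 to 106 ± 6.01 TPM.

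Messages reported as let-7 targets included some that rose and some that fell. Of 38 tested genes 10 rose and 5 fell (median 0.03), beside 15.9% higher and 13.9% lower over all genes tested. With Scgb1a1 removed 6 rose and 14 fell, beside 1564 and 4419 of all 14360 genes tested under that setting. After quantile normalization 11 fell, and without control 1 6 rose. The oncofetal targets Hmga2 and Lin28b were listed at 0 in all 8 libraries, and the RNA-binding protein gene Igf2bp3 was 0.0463 ± 0.0793 TPM across controls and 0.221 ± 0.194 TPM across knockouts (SD, n = 4), all too low for the test. Bach1, a haem-sensing repressor, was at 24.3, 26.3, 29.5 and 28.8 TPM in control and 33.2, 33, 34.2 and 30.4 TPM in knockout libraries (log2 difference 0.26, SE 0.08, adjusted p = 0.0257). Its call was lost with Scgb1a1 removed (log2 difference 0.12, adjusted p = 0.198) and without control 1 or 2 or knockout 1, 2 or 3 (adjusted p 0.0594 to 0.07). The growth regulator Myc was at 6.64, 8.59, 8.95 and 9.31 TPM in control and 11.6, 14.8, 14.5 and 14.7 TPM in knockout libraries (log2 difference 0.67, SE 0.12, adjusted p = 0.00129), again without overlap. Gnptab, which tags enzymes for the lysosome, and Tgfbr1, a TGF-beta receptor, rose from 22.3 ± 2.4 and 26.2 ± 2.65 to 41.5 ± 3.26 and 51.3 ± 4.7 TPM. Igf1r, the IGF receptor, and Ccnd2, a cyclin, fell from 18.2 ± 1.46 and 51.2 ± 4.17 to 12.6 ± 1.2 and 39.9 ± 2.33 TPM.

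Over the whole transcriptome, genes with a let-7 site rose and fell in about the shares of all genes. Of 13452 tested genes with a 3′ UTR of at least 50 bases in GENCODE M21, 479 held the 8mer CTACCTCA in the longest one. Of these, 17.1% rose, 12.9% fell and their median log2 difference was -0.002, against 16.3%, 14.0% and -0.004 for all. Genes with either 7mer or the 8mer numbered 2217, of which 16.3% rose and 13.8% fell. The median 3′ UTR length was 2415 bases for 8mer genes and 1160 for all, and no adjustment for length was made. The deletion was directed to AT2 cells, so these whole-lung shares cannot show how site genes moved within those cells. Sites of some of the called genes are shown with the 8mer in capitals, as the transcript reads (GRCm38 coordinates of the 8mer). Sites of the called reported targets Arid3a, Cdc34, Col3a1 and Fas are left out. Of these Fas fell (log2 difference -0.31, adjusted p = 0.013) and the others rose. The first 4 genes are reported targets, and the last 2 are among the 6 site genes with the smallest adjusted p.
Gnptab, chr10:88445863-88445870, plus strand: ttgaaagtcacCTACCTCAgcatctgtgaa
Tgfbr1, chr4:47410843-47410850, plus strand: ggctggttgttCTACCTCActgagagaaca
Bach1, chr16:87732000-87732007, plus strand: caatggatttcCTACCTCActggacactcg
Bach1, chr16:87732293-87732300, plus strand: aagtaactacaCTACCTCAtacacaccttt
Igf1r, chr7:68229125-68229132, plus strand: caaacatttatCTACCTCActcttgttttt
Cd84, chr1:171854589-171854596, plus strand: ggaaaagaattCTACCTCAaaggcccagaa
Msr1, chr8:39604610-39604617, minus strand: catgtcaattcCTACCTCAcagggttgttg
The 6 site genes with the smallest adjusted p were Cd84, Gla, Msr1, Cd200r1, Nek6 and Cd300lb, with log2 differences of 2.77, 2.33, 3.04, 2.75, 1.42 and 2.03. Cd84, Msr1 (a scavenger receptor), Cd200r1 and Cd300lb are surface receptors of myeloid cells, Gla is lysosomal alpha-galactosidase A and Nek6 a mitotic kinase. An identical site thus stood in genes that rose and, as in Igf1r and Fas, in genes that fell.

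Few Polycomb genes, which encode chromatin-silencing complexes, differed between genotypes. Of 31 tested 1 fell and none rose by the limma test (3 and none at an unadjusted p under 0.05), a share of 3.2% called against 29.8% of all genes, and differences ran from -0.26 to 0.15 on the log2 scale. The methyltransferase gene Ezh2 was at 5.29, 5.82, 7 and 8.16 TPM in control and 6.72, 5.65, 7.34 and 8.73 TPM in knockout libraries, with full overlap (log2 difference 0.10, SE 0.15, adjusted p = 0.668). The 1 that passed was Phc2 (109.8 ± 4.37 to 91.8 ± 1.55 TPM). With Scgb1a1 removed 10 were lower (32.3%), beside 4419 of all 14360 genes tested under that setting.

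Collagen genes moved in both directions, with 6 of 26 higher, 8 lower and 12 that did not pass (median 0.01). With Scgb1a1 removed 3 were higher and 8 lower. Col1a1, the main chain of fibrillar collagen I, was at 111, 94.1, 108 and 109 TPM in control and 99.4, 108, 121 and 99.7 TPM in knockout libraries, with full overlap of the groups (log2 difference 0.02, SE 0.08, adjusted p = 0.888). Its partner chain Col1a2 was at 161 ± 8.02 TPM across controls and 166 ± 10.7 TPM across knockouts (adjusted p = 0.664). Col3a1, the collagen III chain and a reported let-7 target, was the fibrillar chain that rose, at 170.4, 133, 151 and 141 TPM in control and 185, 219, 216 and 178 TPM in knockout libraries (log2 difference 0.42, SE 0.09, adjusted p = 0.00428). Col28a1 rose from a low level, 0.936 ± 0.451 to 4.51 ± 0.923 TPM, and Col12a1, Col13a1, Col23a1, Col8a2 and Col17a1 fell by 1.16, 0.61, 0.64, 0.59 and 0.76. Among matrix glycoproteins and crosslinking genes 9 of 40 rose and 14 fell. Fibronectin (Fn1) was at 117, 112, 127 and 126 TPM in control and 196, 169.9, 179 and 178 TPM in knockout libraries (log2 difference 0.58, SE 0.06, adjusted p = 3.51e-05). The elastic fibre genes Ltbp2 and Mfap5 rose from 45.9 ± 2.54 and 35.9 ± 2.38 to 94.7 ± 12.4 and 60.6 ± 3.76 TPM. The small proteoglycan Ogn and the elastic fibre protein Mfap4 fell from 421 ± 25.8 and 923 ± 33.7 to 219 ± 22.5 and 571 ± 81.7 TPM.

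Genes of contractile cells and of alveolar and adventitial fibroblasts were lower. In the myofibroblast and smooth muscle list 14 of 19 fell and none rose by the limma test, with every log2 difference below 0 (-1.11 to -0.11). Smooth muscle actin (Acta2) was at 199.9, 218, 271 and 181 TPM in control and 118, 111, 108 and 117 TPM in knockout libraries (log2 difference -0.92, SE 0.10, adjusted p = 5.42e-05). The smooth muscle myosin Myh11 fell from 60.4 ± 7.94 to 28.7 ± 2.96 TPM. Cthrc1, a marker of fibrotic myofibroblasts, was at 6.16 ± 1.05 TPM across controls and 5.64 ± 1.21 TPM across knockouts (adjusted p = 0.644). Postn, which encodes periostin, fell from 278 ± 14.9 to 226 ± 32 TPM, a call lost without control 3 or knockout 1, 2 or 4 (adjusted p 0.0536 to 0.0598). Of 20 fibroblast genes 16 fell and none rose by the limma test (17 and none at an unadjusted p under 0.05), with a median of -0.58. The PDGF receptor gene Pdgfra fell from 114 ± 14 to 56.1 ± 1.78 TPM, Wnt2 from 21.9 ± 1.34 to 7.96 ± 0.3 TPM and Npnt, which encodes nephronectin, from 345 ± 11.5 to 235 ± 7.05 TPM. TGF-beta pathway genes were divided, 9 of 28 higher and 7 lower. The ligand Tgfb1 rose from 70.1 ± 5.46 to 113 ± 5.15 TPM and Fstl1, a secreted modulator of the pathway, from 72.4 ± 4.82 to 145 ± 13.8 TPM. The co-receptor Tgfbr3 and the latent-ligand binder Ltbp4 fell by 0.58 and 0.49. Metalloproteinases and their inhibitors included 12 of 22 that rose and 5 that fell. After Mmp12 came Mmp19 (11.9 ± 0.662 to 89.4 ± 11 TPM) and Adam8 (8.84 ± 1.71 to 32 ± 2.58 TPM). They were followed by the gelatinase Mmp2 (60.1 ± 3.9 to 113 ± 8.2 TPM) and its activator Mmp14 (49.8 ± 3.47 to 80.5 ± 5.42 TPM).

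**Figure D4:**
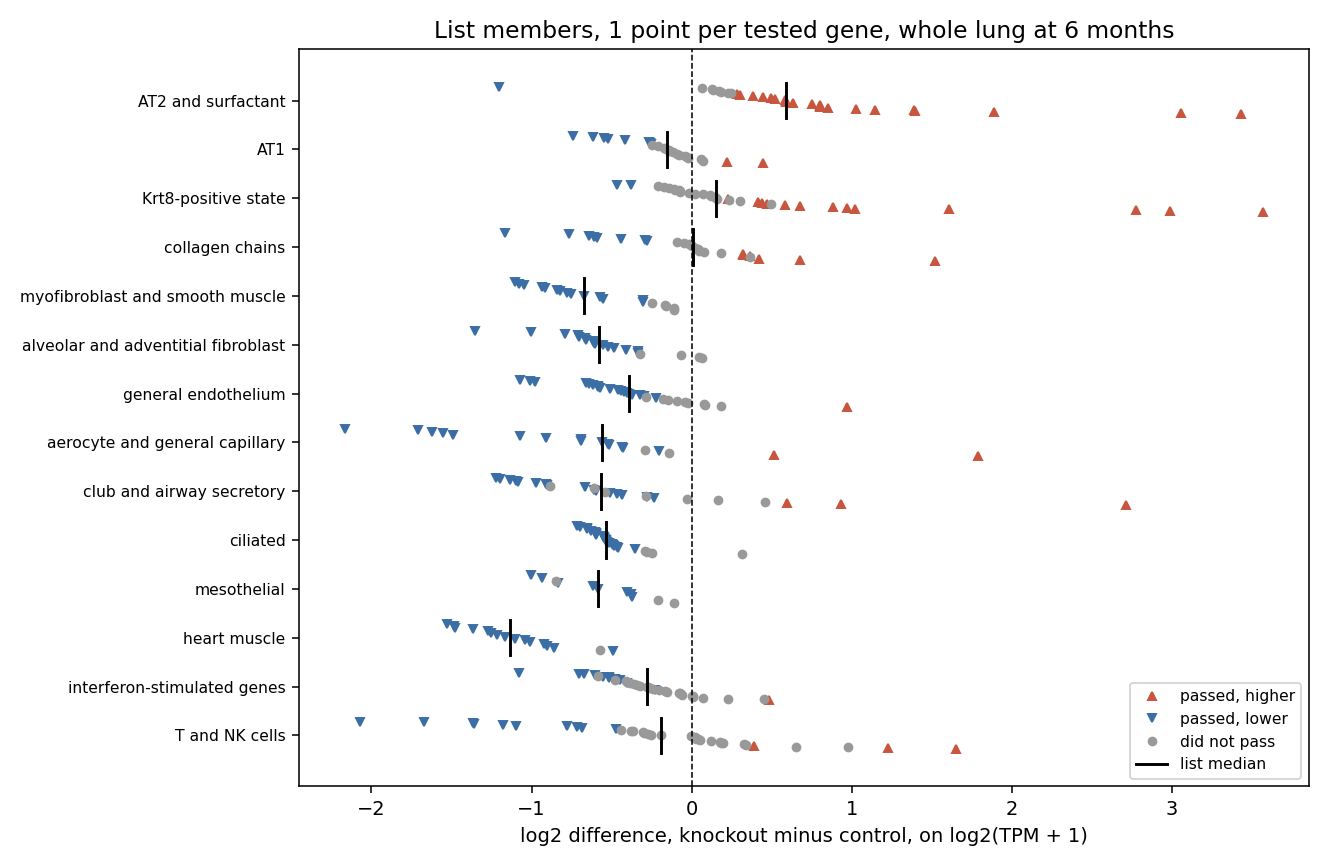
Log2 difference (knockout minus control) on log2(TPM + 1) of every tested member of 14 lists, 1 point per gene, with triangles for genes that passed and grey circles for those that did not and a black bar at the list median. Medians run from 0.59 for AT2 genes to -1.13 for heart muscle, and collagen chains spread on both sides of 0.

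Many general endothelial and capillary genes fell. Of 29 general endothelial genes 19 fell and 1 rose, and of 19 genes of aerocytes and general capillary cells 15 fell and 2 rose. Of the latter 1 was lipoprotein lipase (Lpl, 78.8 ± 11.1 to 276 ± 55 TPM), which macrophages and fat cells also make. The tight junction gene Cldn5 was at 752, 775, 722 and 653 TPM in control and 361, 385, 346 and 375 TPM in knockout libraries (log2 difference -0.98, SE 0.06, adjusted p = 5.33e-07). The VEGF receptor gene Kdr fell from 181 ± 21.8 to 85.6 ± 8.94 TPM and cadherin 5 (Cdh5) from 530.4 ± 14.6 to 353 ± 18.2 TPM. Fibin and Ednrb, used by aerocytes, were among the 15 largest falls. Fibin, a secreted protein, was at 69, 68.9, 71.8 and 67.4 TPM in control and 17.1, 12.9, 13.8 and 15.2 TPM in knockout libraries (log2 difference -2.16, SE 0.08, adjusted p = 1.24e-08). The endothelin receptor Ednrb was at 71.5, 63.5, 63.9 and 60.4 TPM in control and 20.5, 15.6, 17.4 and 24 TPM in knockout libraries (log2 difference -1.71, SE 0.12, adjusted p = 1.19e-06). Each had tight groups well apart. Car4, a carbonic anhydrase of the same cells and of alveolar macrophages, was at 233 ± 19.4 TPM across controls and 213 ± 36.3 TPM across knockouts (adjusted p = 0.388).

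Airway genes were lower as well. Of 27 ciliated cell genes 23 fell and none rose by the limma test, at an unadjusted p under 0.05 either. The tubulin-binding Tppp3 fell from 719 ± 48 to 442 ± 24.2 TPM and the ciliogenesis regulator Foxj1 from 95.2 ± 9.86 to 68.5 ± 3.08 TPM. Of 26 club and airway secretory genes 16 fell and 3 rose. Scgb1a1 differed by -0.90 (SE 0.10, adjusted p = 3.87e-05, and 0.0927 with no filter on low values). The cytochrome Cyp2f2 was at 3573, 3649, 3748 and 3512 TPM in control and 1787, 1678, 1649 and 1664 TPM in knockout libraries (log2 difference -1.10, SE 0.05, adjusted p = 3.14e-08). Retnla, a resistin-like protein of airway epithelium and macrophages, went against the rest of the list, from 150.0 ± 39.1 to 977 ± 178 TPM. Mesothelial genes, from the outer lining of the lung, fell at 8 of 11 tested members, with Upk3b from 79.3 ± 12 to 40.9 ± 5.94 TPM.

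Lymphoid genes gave a narrower picture. In the T and NK cell list 10 of 35 fell and 3 rose (7 rose without control 4), and the falls were led by cytotoxic genes. Granzyme A (Gzma) was at 50.1, 92.7, 77.8 and 73.5 TPM in control and 26.6, 10.2, 16.2 and 16.1 TPM in knockout libraries (log2 difference -2.07, SE 0.25, adjusted p = 7.88e-05). Granzyme B (Gzmb) was at 8.29, 14.5, 11.6 and 9.61 TPM in control and 3.81, 1.97, 3.12 and 2.15 TPM in knockout libraries (log2 difference -1.67, SE 0.19, adjusted p = 5.89e-05). Every knockout library was below every control at both. Perforin (Prf1) and the NK receptors Klrb1c and Ncr1 fell from 8.46 ± 2.21, 6.48 ± 1.33 and 7.51 ± 2.52 to 2.7 ± 1.04, 2.31 ± 0.685 and 2.43 ± 1.48 TPM. The T cell gene Cd3e was at 9.81 ± 2.18 TPM across controls and 10.1 ± 0.602 TPM across knockouts (adjusted p = 0.806). Il7r, which lymphocytes and some myeloid cells use, rose from 14 ± 3.17 to 46.5 ± 11.8 TPM. Interferon-stimulated genes were lower at 11 of 37 and higher at 1 (20 lower with Scgb1a1 removed and 17 without knockout 4), among them the GTPases Gbp7, Gbp3 and Igtp, which fell by 0.67, 0.70 and 1.08. In the B and plasma cell list 3 of 22 rose and 3 fell by the limma test. None fell without control 4 or knockout 2 or 3, 6 fell without knockout 1 and 7 with Scgb1a1 removed. The immunoglobulin joining chain (Jchain) was at 133, 125, 129.9 and 682 TPM in control and 458, 512, 435 and 732 TPM in knockout libraries, where control 4 lay inside the knockout range (log2 difference 1.41, SE 0.46, adjusted p = 0.0398). The call was lost without any 1 library other than control 4 (adjusted p 0.0504 to 0.115). The neutrophil gene S100a8 was at 219 ± 49.1 TPM across controls and 252 ± 53.2 TPM across knockouts (adjusted p = 0.43) and S100a9 at 207 ± 48.9 TPM across controls and 157 ± 36.1 TPM across knockouts (adjusted p = 0.142). S100a9 fell without control 2 (adjusted p = 0.0326) and with Scgb1a1 removed (adjusted p = 0.035).

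Chemokines, cytokines and their receptors rose at 25 of 48 members and fell at 4 (2 without control 1, 3 or 4 or knockout 2, 3 or 4). Ccl3, Ccl9 and the stromal chemokine Cxcl12 rose from 5.02 ± 2.06, 12.2 ± 1.44 and 145 ± 14.4 to 39.2 ± 7.87, 35.6 ± 7.49 and 253 ± 10.9 TPM. The alarmin Il33, made largely by AT2 cells in mouse lung, was at 65.2, 54.4, 76.2 and 60.6 TPM in control and 156, 179, 168 and 171 TPM in knockout libraries (log2 difference 1.39, SE 0.09, adjusted p = 8.5e-07). The interleukin 1 antagonist Il1rn rose from 5.19 ± 0.991 to 43.1 ± 7.22 TPM. Complement genes rose at 11 of 25 and fell at 3 (5 with Scgb1a1 removed), with the C1q chains and the receptor C3ar1 (3.94 ± 0.878 to 29.9 ± 7.67 TPM) in the lead. Among antigen presentation genes 8 of 21 rose and 3 fell (6 fell with Scgb1a1 removed). Itgae, Xcr1 and Clec9a, which mark one class of dendritic cell, rose from 6.07 ± 0.85, 2.52 ± 0.839 and 2.78 ± 0.492 to 15.8 ± 1.08, 6.78 ± 0.41 and 5.93 ± 0.577 TPM. Cd209a, which marks another class, fell from 12.7 ± 1.93 to 5.86 ± 0.648 TPM.

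Metabolic genes rose in 3 of the lists. Of 36 genes under BACH1 and NRF2, which control haem, iron and antioxidant genes, 23 rose and 1 fell. With Scgb1a1 removed 19 rose and 6 fell, and after quantile normalization 21 rose and 3 fell. The ferritin chains were the highest of them. Ftl1 was at 3225, 2952, 3214 and 3445 TPM in control and 14346, 15839, 13473 and 12491 TPM in knockout libraries (log2 difference 2.13, SE 0.08, adjusted p = 8.96e-09). Its partner chain Fth1 rose from 4310.0 ± 133 to 9989 ± 552 TPM. Peroxiredoxin 1 (Prdx1) and thioredoxin (Txn1) rose from 511 ± 15.2 and 266 ± 9.45 to 1271 ± 90.7 and 479 ± 13.3 TPM. Sterol and fatty acid synthesis genes rose at 21 of 31 and none fell by the limma test (1 at an unadjusted p under 0.05). Dhcr7, Mvd and Cyp51 of cholesterol synthesis rose from 12.1 ± 1.7, 11.8 ± 1.21 and 18 ± 0.379 to 33.6 ± 2.11, 29.6 ± 2.69 and 32.6 ± 1.5 TPM, and fatty acid synthase (Fasn) from 69.5 ± 6.85 to 122 ± 7.77 TPM. Glycolysis and hypoxia genes rose at 14 of 27 and fell at 3 (5 with Scgb1a1 removed), led by the myeloid hexokinase Hk3 (2.55 ± 0.377 to 37.7 ± 10.1 TPM). Respiratory chain genes rose at 9 of 38 with none lower by the limma test (17 higher and none lower at an unadjusted p under 0.05), but this direction turned with the scaling. In the same list 1 rose and 5 fell with Scgb1a1 removed, and 1 rose and 1 fell after quantile normalization.

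Of 18 tested circadian clock genes 11 rose and 2 fell. The activator gene Arntl (BMAL1) was at 17.6, 11, 14.8 and 11.2 TPM in control and 4.56, 2.97, 4.14 and 3.14 TPM in knockout libraries (log2 difference -1.63, SE 0.17, adjusted p = 2.53e-05), and Clock fell from 22 ± 1.19 to 14 ± 1.77 TPM. Among those that rose, the clock output gene Dbp was at 55.3, 66.1, 68 and 110.0 TPM in control and 213, 204, 205 and 226 TPM in knockout libraries (log2 difference 1.54, SE 0.16, adjusted p = 3.48e-05), and the repressors Bhlhe40, Bhlhe41 and Ciart rose from 41.2 ± 6.88, 6.51 ± 1.98 and 4.66 ± 2.12 to 117 ± 14.3, 29.2 ± 4.14 and 15.5 ± 2.17 TPM. Among controls Dbp was highest in control 4, and the part of the hour of collection, which no source used here states, was not tested. Heart muscle genes also moved with genotype, with 15 of 16 lower. The list's sum was 660 to 1446 TPM in controls and 332 to 498 TPM in knockouts, and atrial myosin Myh6 was at 123, 57.2, 71.9 and 99.4 TPM in control and 43.1, 24.5, 27.6 and 26.1 TPM in knockout libraries. Mouse pulmonary veins carry heart muscle, and the part of these cells or of dissection in the other differences was not tested. Of the fat cell markers, Adipoq was at 6.91 ± 2.84 TPM across controls and 3.52 ± 2.68 TPM across knockouts (log2 difference -1.04, adjusted p = 0.148), and the lipid droplet gene Cidec fell from 10.1 ± 3.56 to 4.88 ± 1.71 TPM (adjusted p = 0.0196, but 0.0516 without control 3). The fat cell list as a whole went both ways. Of its 14 tested genes 2 rose and 4 fell, with log2 differences from -1.21 to 2.06 and a median of -0.69. The list's sum was 246 to 415 TPM in controls and 304 to 469 TPM in knockouts.

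Of the other large falls, Spon2, a secreted matrix protein, was at 32.7, 27.6, 29.7 and 19.1 TPM in control and 4.43, 5.57, 3.35 and 3.78 TPM in knockout libraries (log2 difference -2.41, SE 0.17, adjusted p = 1.57e-06). Xpnpep2, a membrane aminopeptidase, was at 15.9, 15.3, 16 and 15.6 TPM in control and 3.07, 2.84, 2.21 and 3.18 TPM in knockout libraries (log2 difference -2.13, SE 0.10, adjusted p = 8.43e-08). Groups lay apart at both, with control 4 nearest to the knockouts at Spon2. Colq, which anchors acetylcholinesterase to matrix, fell from 32.1 ± 2.06 to 7.74 ± 1.92 TPM, the retinoic acid-degrading enzyme Cyp26b1 from 17.1 ± 7.09 to 4.23 ± 1.47 TPM, and the amino acid transporter Slc7a10 from 25.7 ± 3.98 to 7.44 ± 1.65 TPM. Cst8, a cystatin, and Asgr1, a lectin receptor, fell by 2.15 and 1.79, and Fam124b fell by 1.87. The GTPase gene Gvin1 and the histone gene Hist1h4h belong to families of near-identical copies and were each listed at 0 in knockout 3, so their log2 differences of -2.22 (SE 0.62) and -1.84 (SE 0.48) are uncertain. With a pseudocount of 0.1 TPM neither passed (adjusted p = 0.0785 and 0.0572), nor did Gvin1 without control 2 (adjusted p = 0.0556).

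The 6-day lungs, 3 control and 3 knockout mice of the same genotypes after 6 days of tamoxifen, show where the later difference departs from the early one. The genotype effects differed between the times at 379 of 13875 genes tested in both (2.73%), 330 more positive at 6 months and 49 more negative. This count rested on single 6-day libraries: it was 107 without 6-day control 1, 222 without control 2, 159 without control 3, 142 without 6-day knockout 2 and 889 without knockout 3, and haemoglobin genes took 1.40 to 12.6% of TPM at 6 days. Of 14 largest rises tested at both times, 9 were larger at 6 months. These genes were picked for the size of their 6-month rise, a choice that favours a larger effect at that time. Gpnmb differed by 6.61 at 6 months and 2.56 at 6 days (difference 4.05, SE 0.42, adjusted p = 0.000326), Mmp12 by 6.89 and 1.83 (difference 5.06, SE 0.60, adjusted p = 0.0019) and Cxcr1 by 4.91 and 1.23 (difference 3.68, SE 0.40, adjusted p = 0.000265). The 6-day controls held 20.5 ± 13.7 TPM of Gpnmb, 41.5 ± 41.3 TPM of Mmp12 and 1.81 ± 1.05 TPM of Cxcr1 (SD, n = 3). For Gpnmb and Mmp12 these means lay above every 6-month control, so the control level also enters the difference. Atp6v0d2, Ccl6, Clec4d, Slc39a2, Trem2 and Wfdc17 were the other 6, of which Atp6v0d2 alone kept its call without each single library. Without 6-day control 1 the adjusted p was 0.115 for Trem2, 0.112 for Clec4d, 0.0749 for Ccl6 and 0.0543 for Slc39a2, and without 6-day knockout 2 it was 0.0852 for Wfdc17. Other single libraries also ended the call, with adjusted p up to 0.149 for Trem2, 0.115 for Clec4d, 0.0636 for Wfdc17 and 0.057 for Ccl6. With median-ratio scaling Trem2 (adjusted p = 0.0909), Clec4d (0.0673), Wfdc17 (0.0666) and Ccl6 (0.0533) lost the call, which left 5 of the 9. Sftpc was lower in knockout lungs at 6 days, while its 6-month difference did not pass. In 6-day lungs it was 31418 ± 2477 TPM across controls and 11265 ± 1711 TPM across knockouts (SD, n = 3), a log2 difference of -1.49, against 0.18 at 6 months (difference 1.67, SE 0.16, adjusted p = 0.000223; adjusted p = 0.0812 with median-ratio scaling). Gzmb differed by -0.14 at 6 days and -1.67 at 6 months (difference -1.54, SE 0.27, adjusted p = 0.00365). Spp1 was higher in knockouts at both times, by 2.79 at 6 months and 4.26 at 6 days (difference -1.47, SE 0.42, adjusted p = 0.105). For Krt8 the values were -0.11 and 0.67 (difference -0.78, SE 0.19, adjusted p = 0.0733), differences between times that did not pass. Gdf15 (3.57 and 3.03), Myc (0.67 and 0.68) and Slc7a10 (-1.67 and -1.63) stand side by side here, with adjusted p for the difference of 0.451, 0.981 and 0.958.

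**Figure D5:**
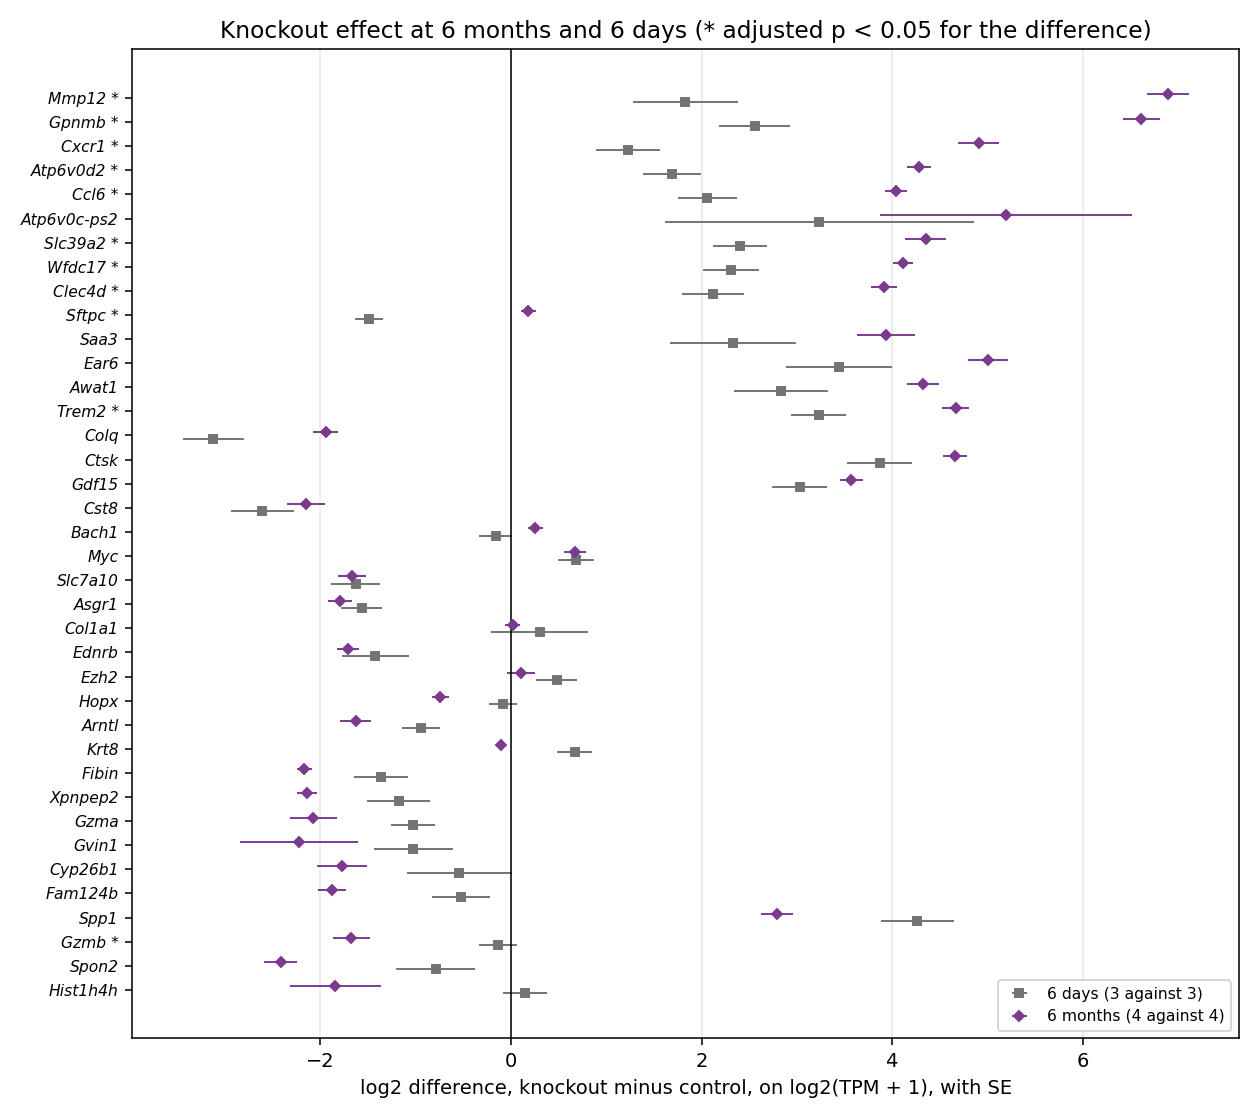
Log2 difference (knockout minus control) with SE on log2(TPM + 1) at 6 months (diamonds, 4 against 4) and 6 days (squares, 3 against 3) for the 38 genes named by size or throughout that were tested at both times, ordered by the gap between them. Asterisks mark the 11 genes whose effects differed at an adjusted p under 0.05, from Mmp12 at the top to Gzmb near the bottom.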

How the data were processed

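RNA of whole lungs was sequenced from non-strand-specific TruSeq libraries, per the labels' protocols. The authors deposited TPM per gene symbol, with the GRCm38 genome in the submitters' processing notes, and no source used here names the aligner, quantifier or gene models. TPM hold no read number, which leaves depth and counting error unknown. Of 24972 rows, 2 that repeated a symbol were left out.

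The 8 libraries were fitted here with limma 3.58.1 (R 4.3.3) on log2(TPM + 1). Genotype was the single term, with empirical Bayes, a variance trend and tests in both directions. Benjamini-Hochberg adjustment covered the 14177 genes with at least 1 TPM in at least 4 libraries, and an adjusted p under 0.05 was called. Fold changes on this scale understate low genes. The script was tested on simulated data. The 6-day table was fitted alone, and effects were compared between tables with separate errors and Satterthwaite degrees of freedom. Shared replicate numbers were not taken to pair libraries: deviations of same-numbered libraries correlated at 0.08 to 0.217, not above 0.1 in every pair.

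Lists were described by counts and medians. The members and lists were chosen with earlier results of these data known. By rule the text names the 15 largest rises and 15 largest falls among calls with at least 5 TPM and no overlap, up to 6 list members by adjusted p, fixed cell type markers, 12 genes throughout and 6 let-7 site genes. Ctsa, Atp6v0d1, Atp6v1a and Mcoln1 were chosen for their motif after their values were seen. Loci and 3′ UTRs came from GENCODE M21, whose names matched 14053 tested genes, and promoters and microRNAs from RefSeq. Removing Scgb1a1 and rescaling was an alternative added after the data were seen.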

Additional observations from a re-analysis of the deposited data

Results flagged for a closer look

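In 23 of 368 groups of 4 libraries looked at for the genes named, the highest or lowest library stood apart: its gap to the nearest of the others, divided by the whole range of the group, was above Dixon's critical value for 4 samples. Chance flags about 1 in 20 groups. Among controls, control 4 was far above the others at Jchain (0.986), Psap (0.852) and Slc7a11 (0.85) and below them at Asgr1 (0.97). Control 3 was highest at Cd300lb (0.955), Chil1 (0.933) and Cdkn1c (0.861). Control 1 was highest at Cst8 (0.893), Atf3 (0.858), Cd209a (0.847) and Csf2ra (0.846) and lowest at Mmp19 (0.883), and control 2 was lowest at Ctsk (0.875). Among knockouts, knockout 1 was highest at Cd300lb (0.936), Tyrobp (0.869) and Myh6 (0.834) and lowest at Myc (0.901). Knockout 2 was highest at Chil1 (0.912) and Saa3 (0.866). Knockout 3 was highest at Postn (0.94) and lowest at Pcna (0.951), and knockout 4 was lowest at Atp6v0d1 (0.91) and Cidec (0.894). Of these genes, Cidec, Jchain and Postn lost their calls without some single libraries.

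For 11 genes the genotype effect differed between 6 months and 6 days by the limma test of the difference itself. Most of them were picked for the size of their 6-month change, which favours such gaps. The 6-month log2 difference exceeded the 6-day one by 5.06 at Mmp12, 4.05 at Gpnmb, 3.68 at Cxcr1, 2.59 at Atp6v0d2, 1.98 at Ccl6, 1.95 at Slc39a2, 1.80 at Wfdc17, 1.80 at Clec4d, 1.67 at Sftpc and 1.44 at Trem2. At Gzmb the gap was -1.54. The 6-day libraries differ from the 6-month ones in tamoxifen course and haemoglobin share, and the part of these was not tested.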

How the results depend on the processing

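The number of genes called at 6 months stayed within 1.5 times 4226 under each of the 18 alternatives, and without each library in turn it was 3618 to 3897. The number called lower, 1966, became 4419 with Scgb1a1 removed and 2808 after quantile normalization. The number with different effects at 6 months and 6 days, 379, became 610 when both tables shared 1 estimate of the spread, and 107 to 889 without single 6-day libraries. Of 184 genes named and tested, 167 were called; 160 of these had a value under all 18 alternatives and 152 kept their direction and call. Bub1b, Cdkn2a, Col17a1, Col28a1, Klrb1c and Ncr1 were not tested with the filter at 5 TPM and kept theirs under the other 17. Bach1, Cidec, E2f1, Gvin1, Hist1h4h, Jchain, Lyz2, Postn and Scgb1a1 lost the call under at least 1 alternative. Quantile normalization set the log2 difference of Scgb1a1 to 0.0 by construction, since it was the highest gene in every library. With the replicate number as a block 4454 genes were called, and no named gene changed its call; B and plasma cell genes called lower went from 3 to 8 and T and NK cell genes called higher from 3 to 5. Each knockout library correlated best with the control of its own number, a hint from the data and not from the design. TPM give no read number, so low genes have no counting limit here.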

Other observations

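Growth factor genes were also lower more often than higher. In the insulin-like growth factor list 2 of 16 tested genes rose and 6 fell. The binding protein Igfbp3 fell from 158 ± 14 to 54.5 ± 4.59 TPM (mean ± SD, n = 4), while the ligand Igf1 rose from 4.88 ± 0.73 to 17.7 ± 3.03 TPM. Of 22 EGF and FGF ligands and receptors 3 rose and 10 fell, with the receptor Fgfr4 from 25.4 ± 2.75 to 14.4 ± 2.46 TPM and Egfr from 11.5 ± 1.86 to 6.44 ± 0.484 TPM. Of 30 WNT pathway genes 2 rose and 12 fell. The 2 that rose were the secreted WNT inhibitors Sfrp1 (12.4 ± 1.71 to 27.2 ± 4.3 TPM) and Sfrp5 (1.28 ± 0.226 to 16.7 ± 10.3 TPM). These shares stand beside 15.9% higher and 13.9% lower over all genes tested.

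Of 24 unfolded protein and heat shock genes 4 rose and 4 fell, shares close to those of all genes (15.9% higher, 13.9% lower). With Scgb1a1 removed 3 rose and 8 fell, beside 1564 and 4419 of all 14360 genes tested under that setting, and after quantile normalization 7 fell. The stress-induced pseudokinase Trib3 rose from 5.55 ± 0.548 to 13.4 ± 1.78 TPM and the transcription factor Atf3 from 13 ± 8.07 to 60.1 ± 18.6 TPM, while the heat shock gene Hspa1b fell from 26.3 ± 7.25 to 14.3 ± 0.735 TPM. Of 23 immediate early genes 4 rose, Egr2 among them (2.44 ± 0.531 to 12.1 ± 0.535 TPM), and 2 fell. The share called, 26.1%, was near the 29.8% of all genes. Of 10 lymphatic vessel genes 3 rose and 3 fell, and the lymphatic chemokine Ccl21a, which has near-identical copies, rose from 297 ± 41.9 to 554 ± 52.5 TPM. The neutrophil and mast cell list had 3 of 15 higher (5 without control 3) and 3 lower (5 with Scgb1a1 removed), the fat cell list 2 of 14 higher and 4 lower, and the skeletal muscle list 1 of 5 higher and 2 lower. Of 3 tested basal cell genes 1 rose, and of 6 erythrocyte genes 1 fell (3 without knockout 3). The counts of these small lists stand beside 15.9% higher and 13.9% lower over all genes tested.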
